A study of Caenorhabditis elegans with 9 samples.

Results

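The xpa-1 mutant of Caenorhabditis elegans was set directly against the nth-1 mutant, with 2 xpa-1 arrays and 3 nth-1 arrays out of the 9 arrays of the series. The members are the 5 arrays whose strain label is one of these single mutants, and no measured value chose them. By the study's methods, the xpa-1 strain carried the deletion allele xpa-1(ok698) and the nth-1 strain the deletion allele nth-1(ok724), which removes several exons, and each had been backcrossed to the wild type. The labels give the strains as mutants without an allele, and the deposited design text speaks of RNAi mutants. The methods state 3 replicates per strain, of which 2 xpa-1 arrays are analysed here. The other strains of the series, the wild type N2 (2 arrays) and the double mutant nth-1;xpa-1 (2 arrays), entered the fit for the estimate of spread. All were mixed-stage populations, worms of every stage from plates seeded with Escherichia coli HT115(DE3), so the age is that of the whole population. By the methods, worms were collected once the food on the plates was used up, and then digested what their guts held. The paper calls the animals well fed and their conditions unstressed. The values are log2 expression values of Affymetrix GeneChip C. elegans Genome Arrays, and a difference of 1 on this scale is a doubling of signal.

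The genes removed in these strains act at the start of separate repair pathways. NTH-1 is a DNA glycosylase of base excision repair, which cuts out single oxidised pyrimidines. XPA-1 is the damage-verifying protein of nucleotide excision repair, which removes a short stretch of DNA around helix-distorting lesions. The direct contrast asks what separates the transcript levels of worms lacking one pathway from those of worms lacking the other. A mixed-stage culture is whole-animal RNA, in which fewer cells or animals of a kind and less RNA per cell cannot be told apart.

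Arrays of the same strain did not always lie closest. Over the probe sets, nth-1 replicates 1 and 2 correlated at 0.991, but replicate 3 correlated with them at only 0.95 and 0.952. The xpa-1 arrays correlated with each other at 0.98, while xpa-1 replicate 2 and nth-1 replicate 1 correlated at 0.987. Between nth-1 replicates 1 and 3, 3809 probe sets differed by more than 1.8-fold, compared with 853 between xpa-1 replicate 2 and nth-1 replicate 1. The bacterial BioC control read 8.2 to 8.29 on the 3 nth-1 arrays and xpa-1 replicate 2, and 9.63 to 10.04 on xpa-1 replicate 1 and the 4 other arrays. In the single mutants the Gapdh probe sets for the ends of the transcript differed by 1.98, 2.23 and 2.54 (nth-1) and by 2.91 and 1.84 (xpa-1) on the log2 scale, higher at the 3′ end. Values without nth-1 replicate 3 are given beside the results they change, as are list medians with xpa-1 replicate 2 alone, the xpa-1 array that shares its BioC level with the nth-1 arrays.

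Of 22548 probe sets, 6 passed the test between xpa-1 and nth-1. There were 2 higher in xpa-1 (0.00887% of those tested) and 4 lower (0.0177%). They measured the deleted gene xpa-1, its neighbour mks-6, the epidermal gene mnr-1, the uncharacterised gene ZK616.8 with one probe set of its own and one shared with M04G7.2, and a transcript without a gene symbol. The medians of the contrast were 0.02 over probe sets and 0.01 over genes.

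The xpa-1 transcript read 10.69, 10.51 and 10.35 in the nth-1 arrays and 6.59 and 5.66 in the xpa-1 arrays. It was 20-fold lower in xpa-1 (difference -4.39 ± 0.27 SE, adjusted p = 9e-04 in limma). Both N2 arrays (10.57 and 10.58) lay with nth-1, and both double mutant arrays (6.03 and 5.78) with xpa-1, as the genotypes in the labels would have it.

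The largest rise was that of mks-6, which encodes a component of the ciliary transition zone and follows xpa-1 directly in the gene order of the RefSeq annotation. It read 5.98, 6.06 and 6.38 in nth-1 and 10.66 and 10.19 in xpa-1. That is a 19.6-fold higher signal (difference 4.28 ± 0.20 SE, adjusted p = 0.00018). In N2 it read 6.31 and 6.12 and in the double mutant 9.33 and 9.5, so the high values occurred in the 4 arrays whose strain carries the xpa-1 deletion. The gene on the other side of xpa-1, crml-1, differed by 0.22 (95% confidence interval -0.25 to 0.68). Among the 35 genes measured within 20 places on either side of xpa-1, mks-6 alone passed, and the differences of the others ran from -0.74 to 0.58.

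The menorin gene mnr-1 acts in the epidermis to pattern the dendrites of sensory neurons. It read 9.35, 9.28 and 9.36 in nth-1 and 7.36 and 7.55 in xpa-1, 3.66-fold lower (difference -1.88 ± 0.18 SE, adjusted p = 0.015). The N2 arrays (9.26 and 9.45) and the double mutant arrays (9.31 and 9.1) lay with nth-1. With any array but nth-1 replicate 3 left out, the call was lost (adjusted p 0.068 to 0.25 in those 8 fits) while the difference stayed between -1.97 and -1.78. Low mnr-1 was thus seen in the xpa-1 arrays and not in the double mutant arrays, which also carry an xpa-1 deletion. Against N2, mnr-1 fell by 1.90 in xpa-1 (adjusted p = 0.0014) and differed by -0.15 in the double mutant (adjusted p = 0.67).

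For ZK616.8, the pattern ran the other way around N2. The probe set 176863_at read 6.1, 5.79 and 6.05 in nth-1 and 3.58 and 4.12 in xpa-1, with N2 at 3.36 and 3.18 and the double mutant at 4.5 and 4.32. It was 4.32-fold lower in xpa-1 than in nth-1 (adjusted p = 0.016), and it rose by 2.71 in nth-1 against N2 (adjusted p = 0.00031). The probe set 191900_s_at, shared by ZK616.8 and M04G7.2, read 7.17, 7.39 and 7.45 in nth-1 and 5.91 and 6.06 in xpa-1 (2.56-fold lower, adjusted p = 0.016). A brighter probe set of ZK616.8, 176870_at, did not separate the strains (6.43, 6.25 and 5.51 against 6.5 and 6.4, difference 0.39, interval -0.23 to 1.0). The probe sets of this gene therefore disagree, and the probe set without a symbol, 172464_x_at, has no gene name here. The calls of 176863_at and 191900_s_at were also lost in each of the 8 fits that left out an array other than nth-1 replicate 3 (adjusted p of up to 0.25 and 0.36). The probe set without a symbol read 5.84, 5.83 and 5.81 in nth-1, 7.65 and 7.49 in xpa-1, 6.85 and 6.46 in N2 and 5.88 and 6.03 in the double mutant (3.35-fold higher in xpa-1 than in nth-1, adjusted p = 0.0088).

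**Figure D1:**
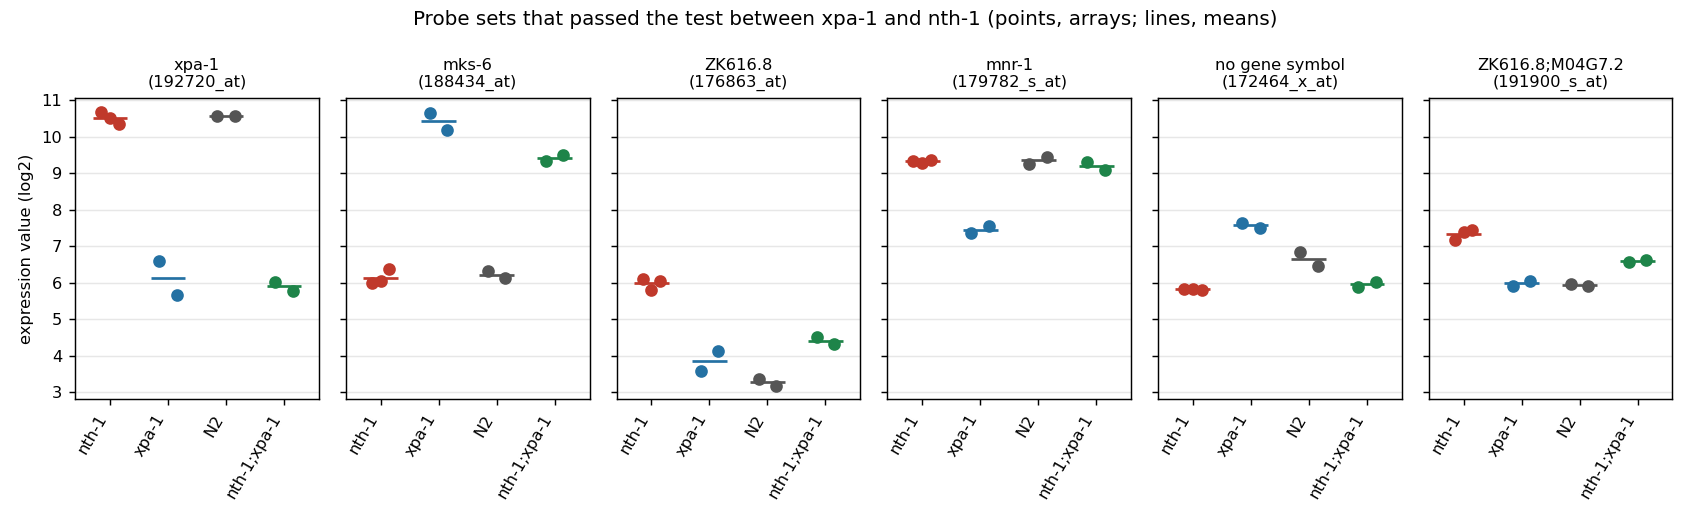
Expression values (log2, vertical axis) of the 6 probe sets that passed the test between xpa-1 and nth-1, with 1 point per array, a line at each strain's mean and the strains along the horizontal axis. The double mutant lies with xpa-1 for xpa-1 and mks-6 (9.33 and 9.5), but with nth-1 and N2 for mnr-1 (9.31 and 9.1).

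The nth-1 transcript itself gave no clear separation. It read 9.63, 9.58 and 9.37 in nth-1 and 9.69 and 10.37 in xpa-1 (difference 0.50, 95% interval -0.03 to 1.04, adjusted p = 0.58). N2 (9.63 and 9.32) and the double mutant (9.46 and 9.38) overlapped the nth-1 arrays. Where the probes lie relative to the deleted exons was not determined, so this gene checks nothing about the labels. Its neighbours were close to even, with mcm-5, a subunit of the replicative helicase, at 0.26 (interval -0.19 to 0.71) and R10E4.6 at -0.17 (interval -0.55 to 0.22), and none of the 35 genes measured within 20 places of nth-1 passed.

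For most other transcripts the fit over all arrays bounded the difference rather than detected it. The 95% interval lay wholly within 1.8-fold either way for 15871 probe sets (70.4%). Its ends lay 0.46 from the estimate in the median (log2). At an unadjusted p below 0.05 there were 1276 probe sets higher (5.66%) and 718 lower (3.18%). With only the 5 arrays of the single mutants in the fit, these were 614 and 256. The intervals rest in part on the N2 and double mutant pairs, which were tighter. In those pairs 148 and 132 probe sets differed by more than 1.8-fold. Between the xpa-1 arrays 1410 did, and between nth-1 arrays 226 to 3809. Intervals from the single mutant arrays alone are not given here. By the ratio of mean signals, with no test, 253 probe sets were at least 1.8-fold higher in xpa-1 (1.12%) and 480 at least 1.8-fold lower (2.13%). A single array decided the number of calls. With nth-1 replicate 3 left out, 1033 probe sets were called higher in xpa-1 (4.58%) and 140 lower (0.621%), the 6 among them, whereas leaving out any other of the 8 arrays gave 1 or 2 higher and 1 lower, as the plot of calls by left-out array shows. Leaving out either remaining nth-1 array or either xpa-1 array kept the calls of xpa-1 and mks-6 only, and leaving out an N2 or double mutant array kept these and 172464_x_at.

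**Figure D2:**
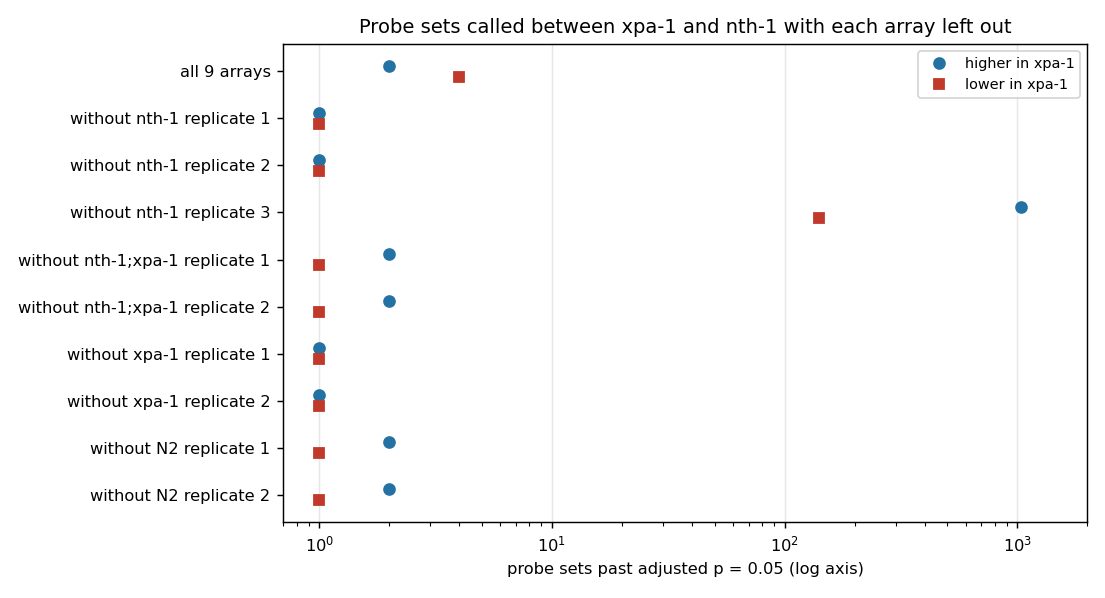
Number of probe sets past an adjusted p of 0.05 between xpa-1 and nth-1 (horizontal log axis) for all 9 arrays and with each array left out in turn (vertical axis), with circles for higher and squares for lower in xpa-1. Leaving out nth-1 replicate 3 gives 1033 higher and 140 lower, against 2 and 4 with all arrays.

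With all 9 arrays, no member of 49 of the 50 gene lists examined passed the adjusted test, and the cilia list held mks-6 alone. Over genes, each read by its brightest probe set, the test called 0.00584% higher and 0.0117% lower. The groups are therefore described by counts of members at an unadjusted p below 0.05 (5.07% of all 17118 genes higher in xpa-1, 3.55% lower) and of members whose 2 xpa-1 arrays lay beyond all 3 nth-1 arrays (10.8% of genes above, 9.56% below). These counts describe the lists and are not tests of them.

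Genes of the germ line and the oocyte read higher in xpa-1 more often than the background shares. In C. elegans the adult gonad makes sperm first and then oocytes, and maternal transcripts are loaded into the oocyte. Of 27 oocyte and eggshell genes, 16 were higher at the unadjusted threshold and none lower, 17 did not overlap, and all 27 differences were positive (0.02 to 1.68, median 0.40). Of 34 germ line genes, a list of P granule genes and regulators of germ line RNA, 17 were higher and none lower, and 19 did not overlap (median 0.41). Against the N2 mean, the medians of the germ line list were 0.15, 0.01 and 0.17 in the nth-1 arrays and 0.6 and 0.6 in the xpa-1 arrays. Those of the oocyte list were -0.08, -0.16 and 0.07 in nth-1 and 0.48 and 0.39 in xpa-1. For both lists each xpa-1 array thus lay above each nth-1 array. The meiosis list was nearer the background at the unadjusted threshold (2 of 26 higher), with 9 not overlapping and a median of 0.18.

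Single genes of this kind are given next, and the germ line list holds RNA regulators by its definition. The germ line tumour suppressor gld-1, a translational repressor, read 10.89, 10.33 and 11.31 in nth-1 and 11.96 and 12.06 in xpa-1 (difference 1.17 ± 0.25 SE, adjusted p = 0.37). The DEAD-box helicase gene cgh-1, whose protein sits in germ granules, read 11.61, 11.2 and 12.02 against 12.75 and 12.64 (1.09 ± 0.21 SE, adjusted p = 0.31). For both, the lowest xpa-1 array lay above the highest nth-1 array.

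The Argonaute gene wago-4, which acts in the inheritance of small RNAs, read 7.55, 6.94 and 7.19 against 8.56 and 8.63 (1.37, adjusted p = 0.17). The P granule gene meg-3 read 8.73, 8.46 and 8.69 against 10.07 and 9.5 (1.16, adjusted p = 0.31). Oocyte genes behaved alike in direction, and lin-41, which keeps oocytes from maturing early, showed how far nth-1 replicate 3 stood from the other nth-1 arrays. It read 9.33, 8.93 and 11.01 in nth-1 and 11.57 and 11.3 in xpa-1 (1.68, adjusted p = 0.45), and 2.30 without that array (adjusted p = 0.00034). For mex-1 the values were 8.46, 8.24 and 9.24 against 10.12 and 10 (1.41, adjusted p = 0.32). All these names were chosen by their values, gld-1 and lin-41 as the largest differences of their lists, and the others as the genes with the largest differences at an unadjusted p below 0.001 whose arrays did not overlap, of which there were 27 above and 16 below.

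Genes of cell division and DNA replication followed. Of 90 mitosis genes, 29 were higher at the unadjusted threshold and none lower, 37 did not overlap, and the median difference was 0.29. The largest was tpxl-1, the activator of Aurora A on spindle microtubules, which read 7.47, 6.7 and 7.14 in nth-1 and 8.81 and 9.19 in xpa-1. Its difference of 1.90 ± 0.23 SE (3.67-fold) came nearest to the threshold of the list members that missed it (adjusted p = 0.064), with N2 at 7.98 and 7.91. The anillin genes ani-2 and ani-3 differed by 0.59 and 1.34 (adjusted p = 0.31 each), without overlap. Of 41 replication genes, 13 were higher and none lower, 15 did not overlap, and the median was 0.26. The ribonucleotide reductase gene rnr-1, which supplies deoxynucleotides, read 10.97, 10.76 and 11.79 against 12.33 and 12.17 (1.08, adjusted p = 0.41).

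The mitotic kinase genes varied less. The polo-like kinase gene plk-1 read 11.86, 11.83 and 11.93 in nth-1 and 12.32 and 12.04 in xpa-1 (0.31, interval 0.00 to 0.62). The Aurora B gene air-2 read 10, 9.85 and 9.53 against 9.89 and 9.9 (0.10, interval -0.33 to 0.54), and its arrays overlapped. Between these strains a 1.8-fold difference in either kinase lay outside the interval of the fit over all arrays. That interval rests in part on the tighter N2 and double mutant arrays.

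DNA repair genes other than the deleted ones leaned to xpa-1 with smaller differences. Of 56 members, 8 were higher at the unadjusted threshold and none lower, 17 lay above without overlap and 1 below, and the median was 0.22. The poly(ADP-ribose) polymerase gene parp-1 read 8.94, 8.5 and 10.25 against 10.28 and 10.68 (1.25, adjusted p = 0.50). The Bloom helicase gene him-6 read 9.04, 8.58 and 9.04 against 9.63 and 9.92 (0.89, interval 0.38 to 1.39, adjusted p = 0.41). The mismatch recognition gene msh-6 read 10.82, 10.65 and 10.78 against 11.4 in both xpa-1 arrays (0.65, interval 0.29 to 1.01).

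Other members gave intervals that reached or neared 0. Differences were 0.61 for mlh-1 (mismatch repair, interval 0.22 to 1.0), 0.71 for dna-2 (a nuclease and helicase, interval 0.21 to 1.21) and 0.62 for hsr-9 (the 53BP1 homologue, interval 0.19 to 1.05). For msh-2, the partner of msh-6, the interval was -0.09 to 0.78, for polq-1 (polymerase theta, which joins broken ends) -0.03 to 0.73, and for dog-1 (a helicase that unwinds G-rich DNA) -0.34 to 1.38. The tankyrase gene tank-1, also called pme-5, gave -0.38 to 1.70 with overlapping arrays (9.86, 9.41 and 11.29 against 10.73 and 10.96). The cell cycle factor gene dpl-1 gave -0.01 to 0.92. With all arrays, the adjusted p of every repair gene named here was 0.41 or higher.

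Gene length and the choice of arrays are set beside these lists. In the comparison of genes by length, taken from start to end in the RefSeq annotation with introns, the median length was 2.18 kb over all genes, 2.97 kb over the 1848 genes whose xpa-1 arrays lay above and 1.7 kb over the 1636 below. In the shortest 10% of genes (median 0.622 kb) 5.74% lay above and 15.8% below, and in the longest 10% (median 10.2 kb) 17.4% and 3.75%. Among those longest genes the arrays stood at -0.13, -0.21 and 0.16 (nth-1) and 0.09 and 0.08 (xpa-1) relative to their common mean. The low values were those of nth-1 replicates 1 and 2, and nth-1 replicate 3 was the highest of the 5. Median lengths of the lists were 2.18 kb for oocyte and eggshell, the same as over all genes. They were 2.98 kb for germ line, 3.28 kb for mitosis, 2.93 kb for replication and 4.54 kb for DNA repair. The part of gene length in their differences was not tested. With xpa-1 replicate 2 as the only xpa-1 array, their medians were 0.38, 0.48, 0.31, 0.35 and 0.18, and without nth-1 replicate 3 they were 0.55, 0.35, 0.31, 0.14 and 0.18.

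**Figure D3:**
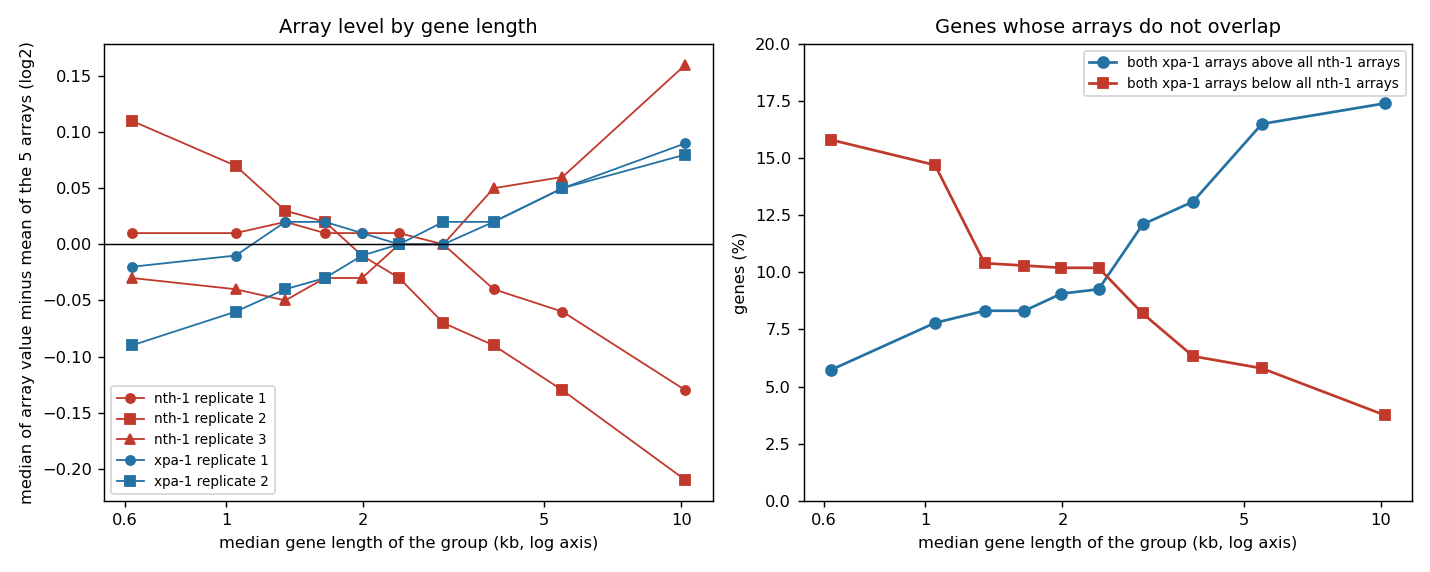
Left, the median of each array's value minus the mean of the 5 arrays (log2) in 10 groups of genes by length, and right, the share of genes (%) whose xpa-1 arrays lie above (circles) or below (squares) all nth-1 arrays, both against the median gene length of the group (kb, log axis). The share above runs from 5.74% in the shortest genes to 17.4% in the longest, and nth-1 replicate 2 runs from 0.11 to -0.21.

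Markers of sperm split within each strain. The 23 major sperm protein genes, which are made in developing sperm, had medians against N2 of 0.49, 0.5 and -0.71 in nth-1 and -1.07 and 0.45 in xpa-1. Both strains thus had an array low in sperm transcripts, and no member had non-overlapping arrays. All 23 differences between the strain means were negative (median -0.36), with a median of -0.71 without nth-1 replicate 3 and 0.37 with xpa-1 replicate 2 alone. The list's summed level (log2) was 15.34 to 16.45 in nth-1 and 14.97 to 16.43 in xpa-1. The 54 other sperm genes split in the same way (0.09, 0.15 and -0.41 against -0.35 and 0.11). Yolk protein genes, expressed in the adult intestine, were low, among the single mutant arrays, in nth-1 replicate 3. Of the 5 vitellogenins, vit-1 read 13.15, 13.1 and 10.31 against 13.24 and 13.02, and the medians of the list were 0.29, 0.2 and -0.95 against 0.36 and 0.38. All 5 differences were positive (median 0.72), and each xpa-1 array lay above each nth-1 array in these medians, as in the germ line and oocyte lists. Without nth-1 replicate 3 the median was 0.12. Its summed level was 15.32 in nth-1 replicate 3 and at least 16.31 in the other single mutant arrays.

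Of 21 early embryo genes none was past the unadjusted threshold (median 0.08). Against N2, their medians were -0.35, -0.29 and -0.33 in nth-1 and -0.06 and -0.41 in xpa-1, so the strains overlapped. These yolk, sperm and embryo values stand beside the higher germ line and oocyte values in xpa-1, and what part the makeup of the cultures has in them was not tested.

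**Figure D4:**
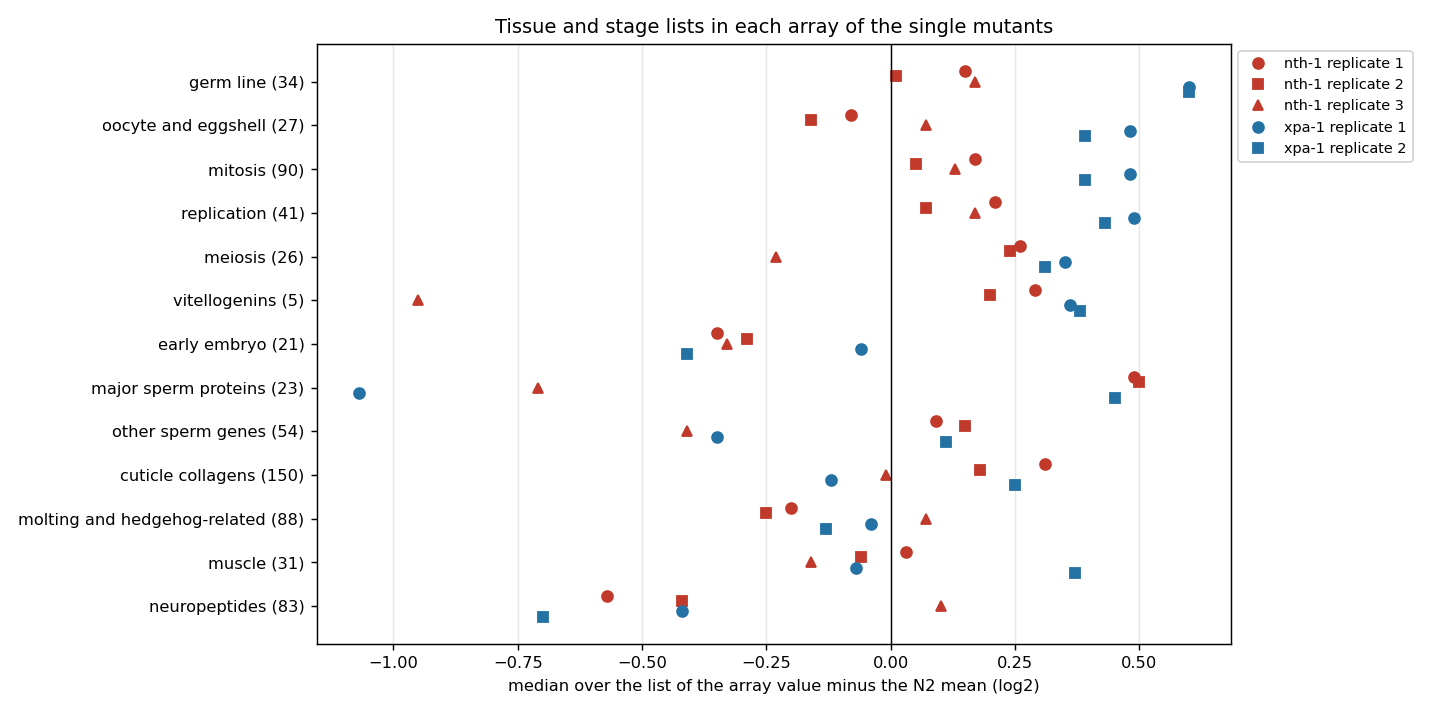
Median over each tissue or stage list (rows, with the number of genes measured) of the array value minus the N2 mean (log2, horizontal axis) in the 3 nth-1 arrays (red) and the 2 xpa-1 arrays (blue). Both xpa-1 arrays lie at 0.6 for the germ line list, above the nth-1 arrays at 0.01 to 0.17, whereas the major sperm proteins split within each strain.

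Cuticle genes held the lowest single value of the contrast among the lists. Collagens form the cuticle that is rebuilt at each molt, and the ground-like genes are relatives of hedgehog expressed in epidermis and its specialised cells. Of 150 cuticle collagens, none was higher at the unadjusted threshold and 23 were lower, with 1 above and 27 below without overlap. The median was only -0.09, so a subset was far from the rest (differences from -3 to 0.98). The list's medians against N2 were 0.31, 0.18 and -0.01 in nth-1 and -0.12 and 0.25 in xpa-1, which overlap. With xpa-1 replicate 2 alone the median was 0.08, and without nth-1 replicate 3 it was -0.32. The median length of these genes was 1.27 kb. In the groups of all genes with median lengths of 1.05 and 1.35 kb, 14.7% and 10.4% lay below, against 18% of these collagens. The part of gene length in their differences was not tested.

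The lowest collagen was col-37, at 8.35, 8.3 and 10.49 in nth-1, 5.84 and 6.26 in xpa-1 and 9.73 and 9.8 in N2 (-3.0 ± 0.57 SE, 10.4-fold, adjusted p = 0.31). Likewise col-2 read 10.55, 10.59 and 12.34 against 8.11 and 8.35 (-2.93 ± 0.47 SE, 9.1-fold, adjusted p = 0.25), with N2 at 11.66 and 11.63. The double mutant also lay below N2, at 7.07 and 6.84 for col-37 and 9.69 and 9.75 for col-2. Both genes were far apart between xpa-1 and nth-1 in every array, and nth-1 replicate 3 lay on the far side. Without that array both were called lower in xpa-1, by 2.34 for col-2 (adjusted p = 0.00022) and 2.27 for col-37 (adjusted p = 0.00033). The collagen gene col-183 had tight arrays (7.3, 7.42 and 7.44 against 6.19 and 6.4, -1.09, adjusted p = 0.13).

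The molting and hedgehog-related list was mixed, with 4 of 88 higher and 10 lower (median -0.08). Within it the ground-like genes grl-20 (8.41, 8.3 and 10.64 against 6.29 and 6.32) and grl-23 (9.63, 9.48 and 11.06 against 7.52 and 7.63) were 9.49-fold and 6.36-fold lower. Their adjusted p were 0.37 and 0.25 with all arrays, and 0.00027 and 0.0005 without nth-1 replicate 3. In N2 they read 9.9 and 9.85 (grl-20) and 11.02 and 11.22 (grl-23), above nth-1 replicates 1 and 2. The double mutant read 6.91 and 7.17 (grl-20) and 9.16 and 9.33 (grl-23), below N2.

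C-type lectins, many of which respond to bacteria in the intestine, were near the background as a family (9 of 220 higher and 8 lower, 22 above and 21 below without overlap, median 0.03). Single members were lower in xpa-1. The nearest to the threshold was clec-101, at 7.85, 7.88 and 7.45 against 6.1 and 6.3 (-1.53 ± 0.19 SE, adjusted p = 0.064), with N2 at 7.81 and 7.44. For clec-60 the values were 12.8, 12.45 and 13.72 against 11.4 and 10.57 (-2.01, adjusted p = 0.31). For clec-86 they were 8.56, 8.65 and 11.13 against 6.45 and 6.62 (-2.91, adjusted p = 0.37), and here N2 (6.67 and 6.56) lay with xpa-1. Thus clec-101 was low in xpa-1 relative to the arrays of N2 and nth-1, and clec-86 was high in nth-1. In the double mutant clec-101 was also below these arrays, at 6.52 and 6.71. The remaining antimicrobial effectors leaned lower (7 of 55 lower, 2 higher, median -0.18), led by spp-27 (7.01, 7.5 and 11.12 against 6.6 and 7.1), whose single high array was nth-1 replicate 3.

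Ribosomal protein genes differed little but often without overlap. Of 75, 14 were lower at the unadjusted threshold and 1 higher, and 23 lay below and 5 above without overlap. Yet the median was -0.05, and all 75 differences had intervals within 1.8-fold in the fit over all arrays. The largest, rps-28 of the small subunit, read 12.66, 12.82 and 12.55 against 12.04 and 12.3 (-0.51 ± 0.11 SE, adjusted p = 0.37). These are short genes (median 0.756 kb) of high signal, and the part of gene length in their differences was not tested. Histone genes, shorter still at 0.457 kb, had 9 of 36 below without overlap and 2 above (median -0.20). At the unadjusted threshold 2 were higher and 1 lower, and without nth-1 replicate 3 there were 4 called higher and none lower. The linker histone gene hil-4 read higher (9, 8.74 and 9.25 against 9.59 and 9.82, 0.71, adjusted p = 0.43).

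Antioxidant enzyme and glutathione transferase genes read lower in xpa-1 more often than the background shares. The detoxification families of cytochromes P450 and UDP-glucuronosyl transferases had medians of 0 and -0.05. Of 24 antioxidant enzymes, 5 were lower at the unadjusted threshold and none higher, with 8 below and 2 above without overlap (33.3% and 8.33%), the highest share below among the lists of at least 20 genes. Their median was -0.14, with -0.06 and no call without nth-1 replicate 3. Of 48 glutathione transferases, 4 were lower and none higher, with 9 below and 2 above without overlap (median -0.16). Several of the larger differences came from nth-1 replicate 3. The mitochondrial superoxide dismutase gene sod-3 read 7.9, 8.18 and 9.94 against 7.77 and 7.69 (-0.94, interval -2.09 to 0.21), and -0.31 without that array. The intestinal thioredoxin gene trx-3 read 8.7, 8.83 and 10.8 against 7.93 and 8.56 (-1.2, interval -2.46 to 0.07). A tighter member was gst-4, a glutathione transferase induced by oxidants, at 8.15, 8.37 and 7.96 against 7.97 and 7.95 (-0.20, interval -0.57 to 0.17). Both strains were above N2 (6.9 and 7.02), with differences of 1.2 for nth-1 (adjusted p = 0.0041) and 1.0 for xpa-1 (adjusted p = 0.013) in comparisons that share the N2 arrays.

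The same held for aqp-1, an aquaglyceroporin gene of the intestine. It read 12.59, 12.11 and 12.15 in nth-1 and 11.86 and 12.89 in xpa-1 (0.09, interval -0.58 to 0.76), far above N2 at 7.41 and 7.28. The methionine sulfoxide reductase gene msra-1, which repairs oxidised methionine, read 10.43, 10.5 and 10.95 against 9.68 and 9.53 (-1.02 ± 0.20 SE, adjusted p = 0.31), with N2 at 9.73 and 9.85. There the nth-1 arrays were the ones apart from N2, by 0.84 (adjusted p = 0.034).

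Small heat shock protein genes and other chaperone genes had medians of opposite sign with all arrays. Of 12 small heat shock protein genes, 2 were lower and none higher (median -0.41), with hsp-17 at 8.73, 9.05 and 10.93 against 8.32 and 7.82 (-1.50, adjusted p = 0.51). Without nth-1 replicate 3 the median of the list was -0.11, and hsp-17 was called lower with a smaller difference (-0.82, adjusted p = 0.047). The probe set shared by hsp-16.48 and hsp-16.49, 172901_x_at, read 6.43, 6.42 and 9.12 against 7.02 and 5.29 (-1.17, interval -2.98 to 0.65), all below N2 at 10.55 and 10.21. Of 23 other chaperone genes, 5 were higher and none lower, with 8 above without overlap (median 0.16). Their largest difference was in hsp-1, the cytosolic HSP70, at 11.49, 10.18 and 11.38 against 11.56 and 12.38 (0.95, adjusted p = 0.53).

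Insulin-like peptide genes and the downstream pathway gave median differences of opposite sign, without a call in either with all arrays. Insulin-like peptides act on the receptor DAF-2, which signals through PDK-1 and other kinases to restrain the factor DAF-16. Of 24 peptides, 2 were lower and none higher (median -0.20), and of 23 signaling genes 4 were higher and none lower (median 0.22). The median gene length was 0.718 kb for the peptides and 7.28 kb for the signaling genes. The part of gene length in their differences was not tested. The agonist ins-7 read 6.93, 7.12 and 9.16 in nth-1 and 6.72 and 6.42 in xpa-1 (-1.17, interval -2.45 to 0.12), and -0.46 without nth-1 replicate 3. For ins-1 the values were 7.26, 7.34 and 8.04 against 7.41 and 7.45 (-0.12, interval -0.66 to 0.42). N2 was higher than all of these (9.7 and 9.7 for ins-7, 8.66 and 8.76 for ins-1). The kinase genes pdk-1 (1.08, interval 0.15 to 2.0) and let-363, the TOR kinase (0.54, interval 0.12 to 0.96), had adjusted p of 0.52 and 0.50. Without nth-1 replicate 3, 6 of the 23 signaling genes were called higher (median 0.41), pdk-1 among them (1.52, adjusted p = 0.0052), and 1 of the 24 peptides was called lower (median -0.11).

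Neuropeptide genes were lower in 72 of 83 cases (median -0.38), but only 4 were past the unadjusted threshold and 14 lay below without overlap. Here too nth-1 replicate 3 was the array apart, with list medians against N2 of -0.57, -0.42 and 0.1 in nth-1 and -0.42 and -0.7 in xpa-1. Without it the median difference was -0.13, with 2 members called lower. The 36 synapse genes did not share this (3 higher, none lower, median 0.01). These lists also differed in median gene length, with 1.04 kb for neuropeptides and 5.87 kb for synapse genes. Muscle genes had 4 of 31 higher and none lower (median 0.18). Their median was 0.42 with xpa-1 replicate 2 alone and 0.03 with xpa-1 replicate 1 alone. They were led by the giant sarcomere protein gene unc-22, at 7.26, 7.12 and 8.3 against 9.05 and 8.78 (1.35, adjusted p = 0.41). The median length of the muscle genes was 4.8 kb, and the part of gene length in the differences of these lists was not tested.

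Other families are set beside the shares of all genes at the unadjusted threshold, 5.07% higher and 3.55% lower. Of 1261 chemoreceptor genes, 41 were higher and 6 lower (median 0.05), both shares below those of all genes. Nuclear hormone receptors had 2 of 254 higher and 6 lower, and cytochromes P450 2 of 73 higher and 1 lower, also below those shares. F-box genes had 7 of 310 higher and 14 lower, the latter near the share of all genes. Without overlap, 5.81% of them lay above and 9.35% below, against 10.8% and 9.56% of all genes. UDP-glucuronosyl transferases had 4 of 64 in each direction, near both shares of all genes. Without overlap, 6.25% of them lay above and 14.1% below. The proteasome had 1 of 33 in each direction, with rpn-1, of the regulatory particle, at 10.76, 10.02 and 11.49 against 11.37 and 11.99 (0.92, adjusted p = 0.53). By contrast, carbon metabolism had 8 of 43 higher and none lower (median 0.15). Its median was 0.32 with xpa-1 replicate 2 alone and -0.03 with xpa-1 replicate 1 alone. Its largest difference, in the malic enzyme gene men-1, came with overlapping arrays (9.78, 8.8 and 9.11 against 9.63 and 10.72).

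**Figure D5:**
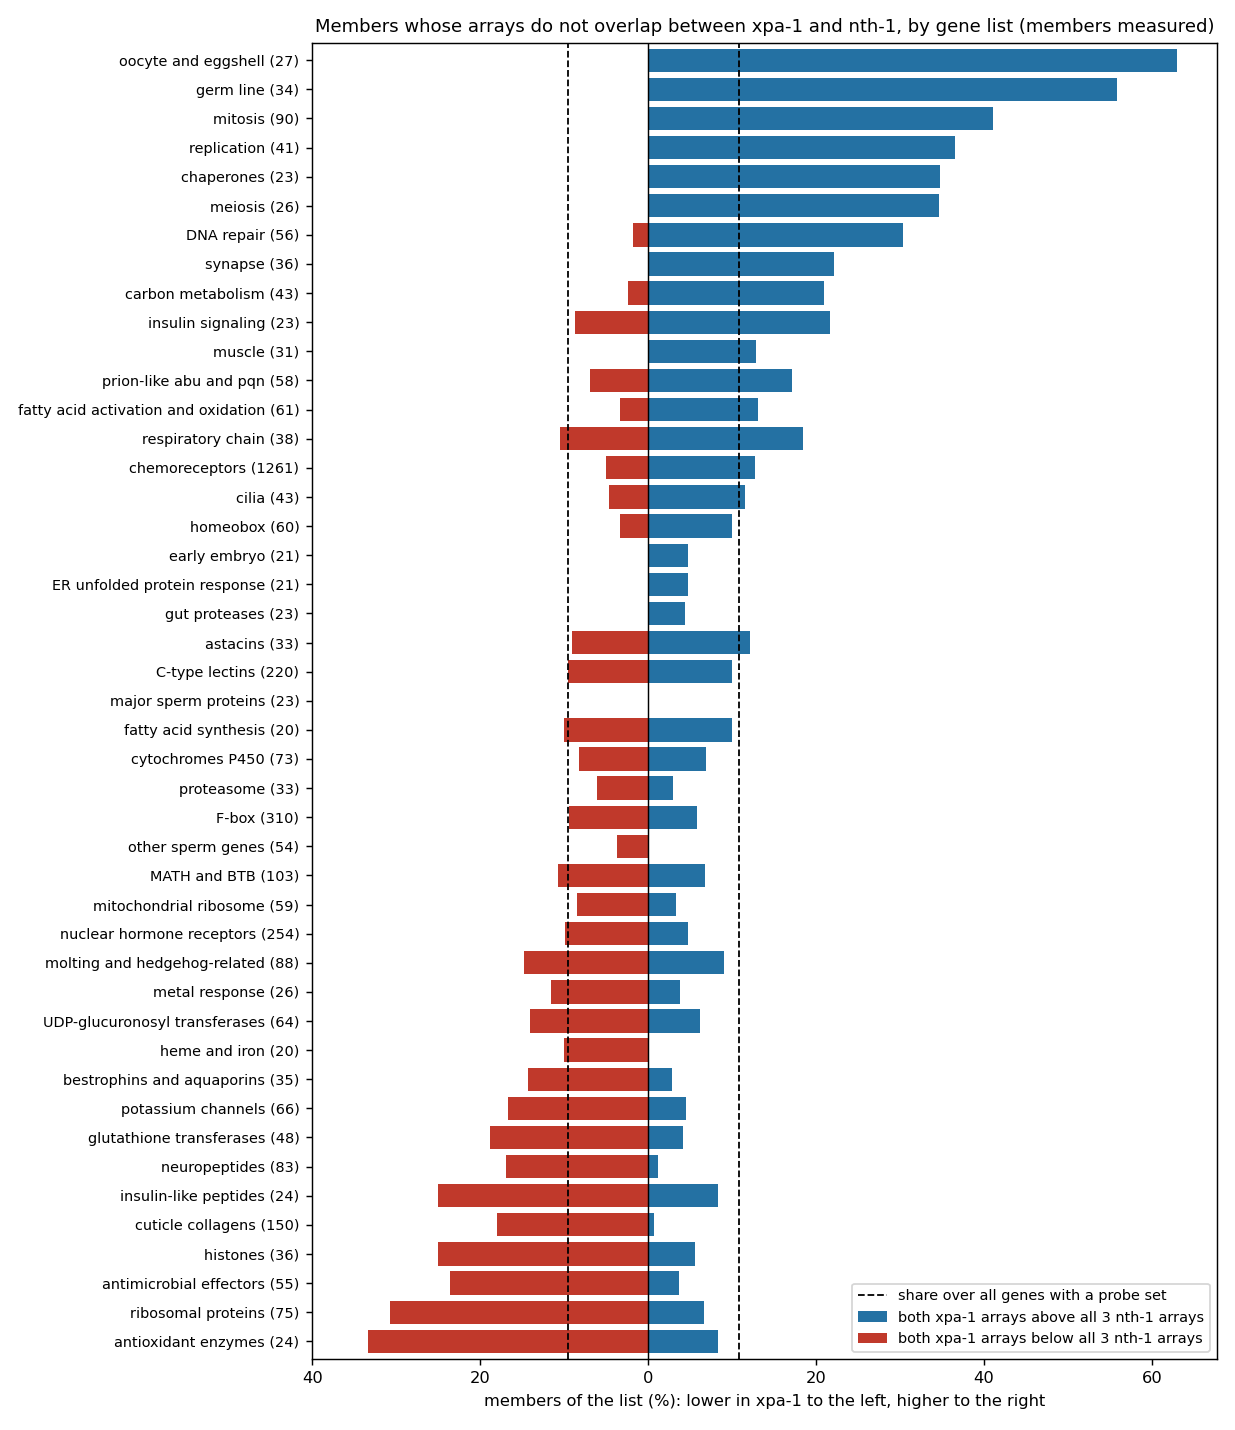
Share of each list's measured genes (%, horizontal axis) whose 2 xpa-1 arrays lie above (blue, right) or below (red, left) all 3 nth-1 arrays, for the lists with at least 20 genes measured. Dashed lines mark the shares over all genes (10.8% and 9.56%), and oocyte and eggshell (63%) and germ line (55.9%) reach farthest to the right.

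A few further genes were named for their size of difference after their values were seen. The caspase gene ced-3, the executioner of programmed cell death, read 6.58, 5.83 and 7.03 in nth-1 and 8.07 and 8.12 in xpa-1 (1.61 ± 0.29 SE, adjusted p = 0.31). The hexosamine pathway gene gfat-1 read 10.2, 9.88 and 10.72 against 11.58 and 11.55 (1.3, adjusted p = 0.31). For asm-3, an acid sphingomyelinase gene, the values were 9.56, 9.65 and 9.12 against 10.86 and 10.27 (1.12, adjusted p = 0.32), and N2 lay above both at 12.33 and 12.53. In the other direction dhp-1, a dihydropyrimidinase gene of pyrimidine breakdown, read 10.03, 10 and 10.58 against 9 and 9.16 (-1.12, adjusted p = 0.31). From the fatty acid synthesis list, the elongase gene elo-4 read 9.28, 9.53 and 11 against 8.6 and 8.23 (-1.52, adjusted p = 0.44).

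Without nth-1 replicate 3, the genes called between xpa-1 and nth-1 numbered 707 higher (4.13%) and 123 lower (0.719%). There were 12 oocyte and eggshell genes, 11 germ line genes, 17 mitosis genes, 9 replication genes and 8 DNA repair genes called higher, none of these lists with a member called lower. There were 16 cuticle collagens called lower and none higher, and 8 molting and hedgehog-related genes called lower and 3 higher. Insulin signaling and muscle had 6 genes each called higher. Examples called higher were mex-5, which sets up embryonic polarity (1.74, adjusted p = 0.00027), rnr-1 (1.38, adjusted p = 0.00079), parp-1 (1.76, adjusted p = 0.0012) and unc-22 (1.73, adjusted p = 0.00081). The 704 higher genes with a known length had a median of 5.98 kb, against 2.18 kb over all genes, and the 123 lower genes had 1.59 kb. Since these calls rest on leaving out the nth-1 array most unlike the others, they describe nth-1 replicates 1 and 2 against xpa-1. They also rest on a spread estimated in part from the N2 and double mutant arrays. With only the xpa-1 arrays and nth-1 replicates 1 and 2 in the fit, 147 probe sets were called higher and 27 lower, against 1033 and 140. Called higher were then 7 oocyte and eggshell, 2 germ line, 4 mitosis, 1 DNA repair and 2 muscle genes and no insulin signaling gene. Called lower were 6 cuticle collagens.

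The N2 arrays place each difference. Of the 1848 genes whose xpa-1 arrays lay above nth-1, the N2 mean was nearer xpa-1 in 833 and nearer nth-1 in 1015. Of the 1636 below, it was nearer xpa-1 in 483 and nearer nth-1 in 1153. The double mutant was nearer xpa-1 in 829 of the first set and in 554 of the second. For the germ line list the double mutant medians against N2 (-0.63 and -0.69) were below those of both single mutants, as they were for mitosis (-0.67 and -0.72).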

How the data were processed

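The deposited table holds log2 expression values of 22625 probe sets on 9 Affymetrix arrays. Per the methods, the authors applied dChip's invariant-set normalization and a model based on perfect-match probes, and the dChip version is not given in the sources used here. That the scale is log2 was read from the values (0 to 14.55, array medians 7.43 to 7.69). The methods state 30 plates per replicate, so arrays were taken as separate cultures. Array intensities were not reprocessed. Precision is limited by how few arrays each strain has.

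Leaving aside 77 controls, 22548 probe sets were tested, of which 20766 carry 1 gene symbol, 887 several and 895 none. Gene IDs of 20701 were found in the RefSeq table of assembly GCF_000002985.6, used for names, gene order and gene length (17073 of 17118 genes with a length). For a gene, the probe set with the highest mean stands. The contrast xpa-1 minus nth-1 came from limma 3.58.1 (R 4.3.3, lmFit, eBayes with trend) over all 9 arrays, with 5 residual degrees of freedom, p-values adjusted by Benjamini-Hochberg across the 22548 and called below 0.05. Scripts were tested on simulated data.

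The 50 gene lists, the rules for names and the comparison itself were chosen with earlier results of these data known. Names were taken as xpa-1, nth-1 and their neighbours, the 12 largest passing changes in each direction, up to 4 passing members of a list (otherwise the largest change), and genes the study discusses. Alternatives were quantile normalization, an offset of 32 before the logarithm, a filter at the 40th percentile, no variance trend, array weights, the 5 arrays alone, a replicate or BioC block and each array left out.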

Additional observations from a re-analysis of the deposited data

How the results depend on the processing

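With 2 probe sets higher and 4 lower in xpa-1, quantile normalization and no variance trend gave the same counts and the same 6 probe sets, and an offset of 32 gave 3 higher and 4 lower. The counts were 1 and 0 with only the 5 arrays of the single mutants, 1 and 2 for probe sets above the 40th percentile, 268 and 31 with array weights (nth-1 replicate 3 weighted 0.141), and 1 and 1 with BioC group as a block. That block leaves xpa-1 replicate 2 against nth-1. Leaving out 1 array gave 1 to 1033 higher and 1 to 140 lower, the highest without nth-1 replicate 3. Chosen after seeing the data, xpa-1 replicate 2 against nth-1 replicates 1 and 2 gave 1684 and 386, and xpa-1 with nth-1 replicates 1 and 2 alone gave 147 and 27. With 1 array left out, the probe sets at least 1.8-fold higher in xpa-1 ran from 159 to 777 and the probe sets at least 1.8-fold lower in xpa-1 from 123 to 1042, and they were 900 and 142 for xpa-1 replicate 2 against nth-1 replicates 1 and 2. The cause was not tested.

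The replicate block gave 733 higher and 85 lower, all 6 included. Same-numbered arrays deviated with correlations of -0.26 and -0.06. With 2 xpa-1 arrays the deviations mirror each other, as in -0.26 and 0.26 for nth-1 replicate 1. These values therefore cannot decide whether the shared numbers pair the arrays. The block fits nth-1 replicate 3 exactly, since no xpa-1 array has that number.

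Of the named genes, some not called in any of these fits changed sign. With 1 array left out they ran from -0.03 to 0.21 for air-2, -0.42 to 0.61 for aqp-1, -1.36 to 0.04 for gst-24, -0.29 to 0.12 for hil-1, -0.10 to 0.79 for lipl-4, -1.24 to 0.30 for msp-49, -1.37 to 0.16 for nas-37, -1.62 to 0.04 for nspd-4 and -0.26 to 0.13 for ins-1. Array weights gave air-2 -0.01, hil-1 0.09 and ins-1 0.09, with 9 arrays or 5. The replicate block gave air-2 -0.03, gst-24 0.04, hil-1 0.12 and ins-1 0.13, and xpa-1 with nth-1 replicates 1 and 2 alone gave the same except hil-1 0.13. The BioC block gave hil-1 0.10, msp-49 0.30, nas-37 0.16 and nspd-4 0.04. With xpa-1 replicate 2 against nth-1 replicates 1 and 2, the values were air-2 -0.03, hil-1 0.32, ins-1 0.15, cpr-3 0.09, nas-37 0.28, smf-3 0.11 and vit-1 -0.11. Of the 99 named probe sets, 51 more were called without nth-1 replicate 3, 44 with the replicate block and 36 with array weights, and the 6 calls stayed in each. The table holds no detection calls, so low probe sets cannot be told from background.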
